A study of Mus musculus with 4 samples.

Results

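The genes described here are the protein-coding neighbours of Emx1 on mouse chromosome 6, measured in newborn cerebral cortex of mice labelled as carrying Emx1-Cre and of mice labelled as controls. They were chosen by position alone: protein-coding genes of the deposited table that start between 81 and 88 Mb and have a count in at least 1 library, leaving out Emx1 and 1 other gene. The table lists 55414 genes, of which 16857 protein-coding ones had a count, and 92 of these are neighbours. Another 11 protein-coding genes of the same stretch had 0 counts in every library. Of the 92 neighbours, 45 lie on the centromeric and 47 on the telomeric side of Emx1. Coordinates are on GRCm39, the build named in the submitters' processing notes, and every gene named lies on chromosome 6 unless another is given.

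The study asked what the kinase MKK7, encoded by Map2k7, does in the developing cortex. Libraries cKO 2 and cKO 3 came from Mkk7flox/flox mice that also carried Emx1-Cre, and Control 2 and Control 3 from mice whose label gives Mkk7flox/flox and names no Cre. Both groups thus carried the floxed alleles, were on the C57BL/6J strain and were taken at postnatal day 1. The labels do not say which Emx1-Cre line was used, whether its Cre sits at the Emx1 locus or in a transgene elsewhere, or whether replicates are different animals. The p-values therefore reflect the spread among 4 libraries, part of which may be technical.

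Emx1 is a homeobox gene of the dorsal telencephalon. A Cre placed under its control recombines floxed alleles in the progenitors of the cortex and hippocampus and in the excitatory neurons and glia that descend from them, but not in the interneurons, vessels, microglia and meninges of the same tissue. An inserted driver can alter the transcription of genes beside it, so the neighbours of a driver locus are a place to look for differences between Cre carriers and controls that depend on position. The neighbours of Emx1 share no pathway. Among them are a chaperonin subunit, splicing factors, mitochondrial enzymes, membrane-traffic proteins and receptors.

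For the whole series, the libraries held between 19421470 and 22511175 counts, and 17017 genes passed the filter on low counts. Map2k7 stood at 47.9 and 48.2 CPM (counts per 1e+06 counts of a library, after scaling) in cKO 2 and cKO 3, against 38.4 and 30.4 CPM in Control 2 and Control 3, so the targeted gene gave no check of the label cKO by a lower level. Its floxed exons are not given, and counts over the whole gene do not check the labels. The Y-linked gene Ddx3y had 985 counts in cKO 3 and 0 in cKO 2, Control 2 and Control 3, so that the libraries of the cKO group differed in sex. Markers of cortical projection neurons were read in every library, with a summed level of 1037 and 1137 TPM (transcripts, scaled to a fixed total per library) in cKO, against 874 and 990 TPM in Control. Marker RNA of striatal neurons differed more between the groups than that of the other marker lists used here: all 18 tested genes of that list had a negative log2 fold change (median -1.82), with summed levels of 163 and 188 TPM in cKO, against 518 and 390 TPM in Control. Ikzf1 of that list had 0 counts in cKO 3. In a bulk sample, fewer cells of a type and less RNA per cell cannot be told apart.

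Emx1 itself (ENSMUSG00000033726.9; start 85164420, end 85181444, plus strand) is the locus against which distances were measured, and it is not counted among the neighbours. It had 428 and 393 counts in cKO 2 and cKO 3, against 248 and 218 in Control 2 and Control 3. Scaled for depth, that is 22.5 and 17.2 CPM in cKO, against 12.6 and 11.1 CPM in Control, and the groups did not overlap. On the log2 scale this was a difference of 0.75 (SE 0.25, with n = 2 in each group), a level 1.68-fold that of Control, and the edgeR adjusted p of 0.399 did not pass the threshold of 0.05. Apparent transcript length, the ratio of a gene's count to its TPM rescaled to bases, was 1224 and 1196 bases in cKO, against 1191 and 1258 bases in Control, and the groups overlapped. The counts do not tell transcripts of a Cre allele from those of the unmodified gene.

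The sequence before the transcription start is shown for Emx1, Mthfd2 and Mob1a, and the sequence between both starts for Pradc1 and Cct7. These are the bases just before the start in RefSeq, on GRCm38.p6, printed on the strand of the gene named. In RefSeq the starts of Mthfd2 and Mob1a lie 8435 bases apart, so their stretches do not adjoin. Capitals mark the letters CCAAT, or ATTGG where they lie on the other strand. The Emx1 stretch is chr6:85187681-85187930 on the plus strand, that of Mthfd2 chr6:83317605-83317854 on the minus strand, and that of Mob1a chr6:83325789-83326038 on the plus strand. Pradc1 and Cct7 point away from each other, and the 202 bases between both starts, chr6:85451303-85451504, are shown on the plus strand.
Emx1: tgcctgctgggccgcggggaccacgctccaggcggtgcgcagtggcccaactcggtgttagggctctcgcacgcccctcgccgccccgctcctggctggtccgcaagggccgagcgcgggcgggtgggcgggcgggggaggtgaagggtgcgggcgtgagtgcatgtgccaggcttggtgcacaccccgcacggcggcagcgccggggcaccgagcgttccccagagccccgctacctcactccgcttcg
Mthfd2: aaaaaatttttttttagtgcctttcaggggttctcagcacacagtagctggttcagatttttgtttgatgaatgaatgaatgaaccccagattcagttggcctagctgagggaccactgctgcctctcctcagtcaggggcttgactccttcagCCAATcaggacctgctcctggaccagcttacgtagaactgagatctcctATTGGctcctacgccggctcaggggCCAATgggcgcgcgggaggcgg
Mob1a: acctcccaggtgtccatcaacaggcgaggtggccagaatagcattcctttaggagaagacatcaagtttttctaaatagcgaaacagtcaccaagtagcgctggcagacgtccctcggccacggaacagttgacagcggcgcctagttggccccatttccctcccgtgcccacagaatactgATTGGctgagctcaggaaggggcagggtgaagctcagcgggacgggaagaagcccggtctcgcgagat
Pradc1_Cct7: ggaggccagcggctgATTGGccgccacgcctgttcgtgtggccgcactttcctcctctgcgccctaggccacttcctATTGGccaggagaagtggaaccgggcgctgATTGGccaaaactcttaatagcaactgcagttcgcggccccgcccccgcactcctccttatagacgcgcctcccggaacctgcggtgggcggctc
The Emx1 stretch is 75.6% G or C and holds 30 CpG dinucleotides and no CCAAT. Mthfd2 has 52.4% G or C, 7 CpG and 3 CCAAT, while Mob1a has 56.8%, 14 CpG and 1 CCAAT. The stretch between Pradc1 and Cct7 has 64.9%, 17 CpG and 3 CCAAT. Over all 32851 promoters of the RefSeq table, the median was 52.4% G or C with 6 CpG. CCAAT was found on either strand in 33.8% of all promoters and in 34.7% of the 95 promoters of the 74 neighbours that matched the table. TGATGNAAT, an element bound by ATF4 with C/EBP partners, was found on either strand in 0.816% of all promoters and in 0% of those of the neighbours. With a background that low, 0 in 95 promoters does not set the neighbours apart. Only the 250 bases before each start were searched.

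No neighbour passed the test. Of the 92 genes, 78 had enough counts to be tested, and the 14 others had at most 34 counts in any library. With edgeR's quasi-likelihood test and Benjamini-Hochberg adjustment over all 17017 genes, 0 of 78 were called higher in cKO, where 0.00588% of all tested genes were, and 0 of 78 were called lower, where 0.0411% were. Shares that low give less than 1 call in 78 genes. Adjusted p-values of the neighbours ran between 0.282 and 0.999. DESeq2, used as an alternative, called 0 neighbours higher (background 0.47%) and 1 lower, Mthfd2 (background 0.617%).

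Without adjustment, 12 of 78 neighbours had an edgeR p below 0.05, a share of 15.4%. Of these, 3 were higher in cKO (3.85% of the 78), against a background of 5.28% of all tested genes and 4.72% of protein-coding ones. The 9 others were lower (11.5%), against backgrounds of 5.66% and 6.15%. In both directions together, the share was 15.0% among 619 other tested protein-coding genes of chromosome 6, with 46 higher and 47 lower. Of these, the genes between 88 and 95 Mb had a share of 7.32% (3 of 41), and those between 74 and 81 Mb 0% (0 of 4). Among protein-coding genes of other chromosomes it was 10.6%. Without Control 2 the count was 4, with 1 higher and 3 lower, or 4.94% of 81 tested neighbours, while the share over all tested genes was 5.21% in that fit, beside 10.9% with all libraries. It was 9 without Control 3 (10.8% of neighbours, 4.87% of all genes), 15 without cKO 2 (18.1% and 12.9%) and 9 without cKO 3 (11.0% of neighbours, and 2335 of all 17973 genes).

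As a group, the neighbours sat close to other genes. Their median log2 fold change was -0.04, with 35 positive and 43 negative values, beside -0.00 over all tested genes and -0.01 over the rest of the protein-coding genes of chromosome 6. Protein-coding genes of the flank between 88 and 95 Mb had a median of -0.00 (41 genes). Over all tested protein-coding genes the median was -0.02. The median size of the change regardless of sign was 0.23 for neighbours, 0.23 over all tested protein-coding genes and 0.26 over all tested genes. cKO and Control libraries did not overlap in CPM for 34 of 78 neighbours, where 44.1% of all tested genes did not. Of the 34, 11 were higher in cKO, where 22.0% of all tested genes were apart and higher, and 23 were lower, where 22.2% were. Of all 14437 tested protein-coding genes, 2741 were apart and higher and 3390 apart and lower, so these also leaned lower. No test was made of the split among neighbours. A change of more than 1 on the log2 scale was seen in 3 of 78 neighbours, 3.85%, and in 9.73% of all tested genes. All tested genes include non-coding ones, and that share was not computed for protein-coding genes alone. The SE of the neighbours had a median of 0.24, beside 0.26 over all tested genes. For 46 of the 78, the 95% interval of the log2 fold change lay wholly between -1 and 1. Summed over the neighbours, the level was 4207 and 4378 TPM in cKO, against 4338 and 4453 TPM in Control, and these ranges overlap.

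**Figure D1:**
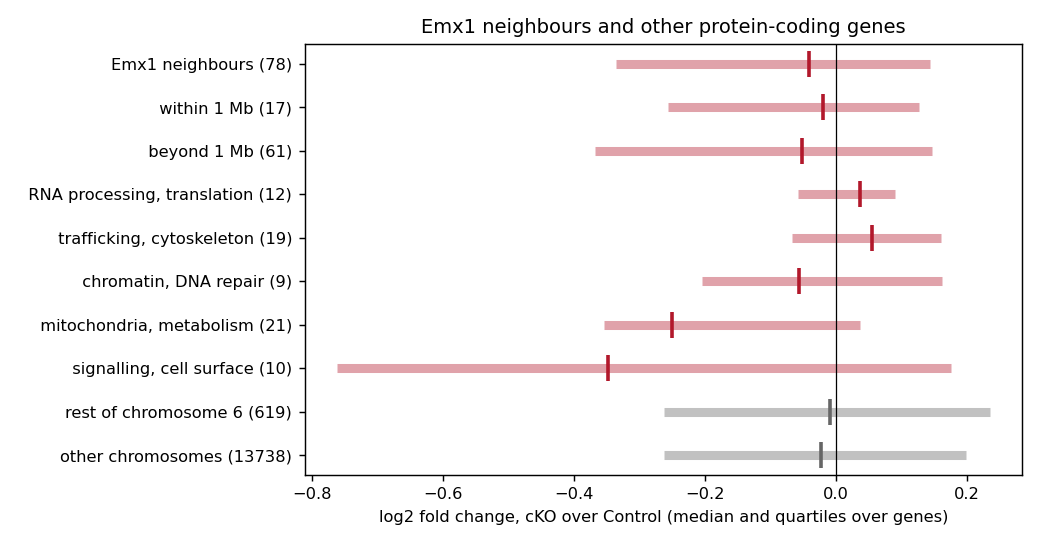
Median (tick) and quartiles (bar) of the log2 fold change, cKO over Control, over tested genes of each group, with the number of genes in parentheses. The neighbours have a median of -0.04 and the rest of chromosome 6 one of -0.01; among the 5 role groups drawn, which leave out the 7 genes with no role assigned, the medians of mitochondria and metabolism (-0.25) and of signalling and cell surface (-0.35) lie lowest.

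Distance from Emx1 did not order the changes. Among the 9 tested neighbours within 0.5 Mb the median size of the change was 0.09 and 0 had an unadjusted p below 0.05. It was 0.44 for the 8 genes between 0.5 and 1 Mb, 0.25 for the 27 between 1 and 2 Mb and 0.27 for the 34 beyond 2 Mb. Unadjusted p-values below 0.05 were counted for 2, 7 and 3 genes of those bins. Within 1 Mb in all, the median size was 0.17 over 17 genes, and beyond 1 Mb it was 0.25 over 61. On the centromeric side 24 of 36 values were negative, and on the telomeric side 19 of 42. No test was made of these differences between bins and sides.

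**Figure D2:**
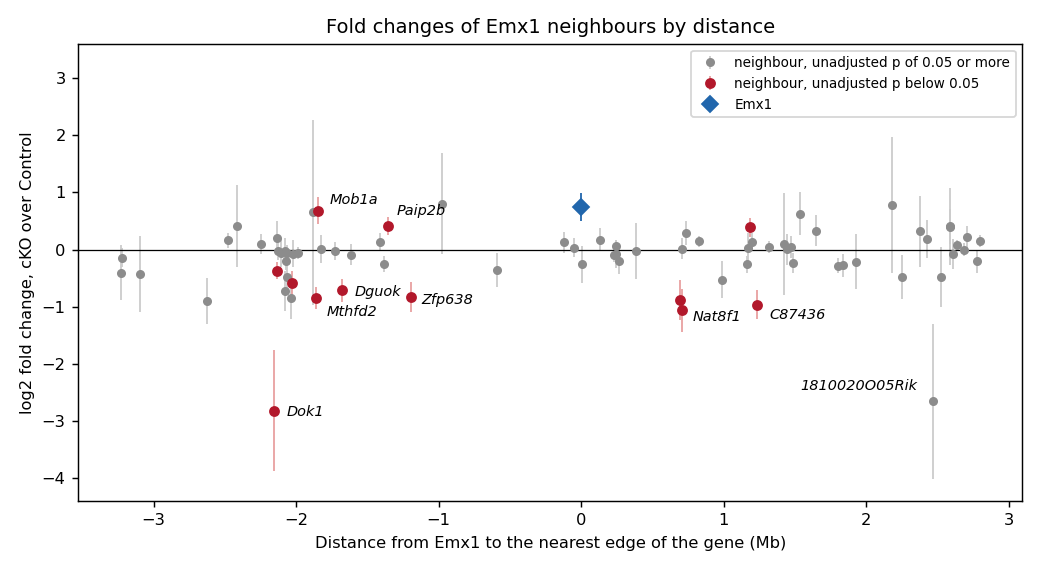
The log2 fold change, cKO over Control, of the 78 tested neighbours and of Emx1 (blue diamond) against distance from Emx1 in Mb, negative on the centromeric side; bars are the SE and red points have an unadjusted p below 0.05. The 9 genes within 0.5 Mb lie between -0.26 and 0.17, below Emx1 at 0.75, and the red points lie farther out on both sides.

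The gene next to Emx1 on the telomeric side is Sfxn5 (start 85190031, end 85310404, minus strand), which encodes a carrier of the inner mitochondrial membrane and ends 8.59 kb from Emx1. It stood at 6.21 and 6.13 CPM in cKO, against 8.20 and 6.55 CPM in Control. In CPM both cKO libraries lay below both Control libraries. In TPM the groups overlapped, at 3.14 and 6.04 in cKO, against 6.73 and 3.57 in Control. The log2 fold change of -0.26 (SE 0.33; 95% interval -1.02 to 0.51) did not pass, with an edgeR adjusted p of 0.813. On the centromeric side the nearest neighbour is Spr (start 85107158, end 85114748), 49.7 kb away, which encodes sepiapterin reductase, the last enzyme of tetrahydrobiopterin synthesis. Spr had 37.2 and 39.1 CPM in cKO, against 36.1 and 38.3 CPM in Control. The groups overlapped, and the interval of its log2 fold change, -0.36 to 0.43, leaves room for modest differences in either direction.

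Beyond these lie 2 genes of membrane traffic. Exoc6b (start 84595469, end 85046495), a subunit of the exocyst that tethers secretory vesicles, had 80.8 and 58.5 CPM in cKO, against 64.6 and 62.9 CPM in Control. The cKO libraries lay on either side of the Control libraries (log2 fold change 0.13, SE 0.18). Rab11fip5 (start 85311944, end 85351616), an effector of Rab11 on recycling endosomes, had 27.5 and 28.2 CPM in cKO, against 22.9 and 26.4 CPM in Control. Its groups did not overlap in CPM, with a log2 fold change of 0.17 (SE 0.20; edgeR adjusted p = 0.783). In TPM they overlapped, at 7.62 and 8.685 in cKO, against 6.654 and 7.68 in Control. Smyd5 (start 85408971, end 85423417), of the SET and MYND family of methyltransferases, had 92.1 and 95.9 CPM in cKO, against 106.6 and 93.3 CPM in Control, and its groups overlapped.

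Pradc1 (start 85423792, end 85428952) and Cct7 (start 85428496, end 85445457) start back to back over the 202 bases printed above. Cct7 encodes a subunit of the CCT chaperonin, which folds actin and tubulin, and was the most abundant neighbour near Emx1, at 450.0 TPM on average. It had 670.1 and 718 CPM in cKO, against 619 and 717 CPM in Control. Pradc1, a secreted protein with a protease-associated domain, had 15.3 and 20.4 CPM in cKO, against 17.2 and 20.4 CPM in Control. Both genes overlapped between groups, at 0.06 (SE 0.11) for Cct7 and -0.07 (SE 0.25) for Pradc1 on the log2 scale. The interval for Cct7, -0.20 to 0.31, is the narrowest of the 9 genes within 0.5 Mb. In the deposited annotation Pradc1 and Cct7 overlap on opposite strands, and the library kit does not mark strand, so counts from the overlap cannot be assigned to either.

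The last neighbours within 0.5 Mb are Fbxo41 and Alms1. Fbxo41 (start 85446556, end 85479976), a neuronal F-box protein, had 33.8 and 54.8 CPM in cKO, against 50.9 and 50.6 CPM in Control. The cKO libraries differed more from each other than the group means did. Alms1 (start 85564513, end 85679735), a protein of the centrosome and cilium base that is mutated in the human Alström syndrome, had 3.16 and 7.44 CPM in cKO, against 6.37 and 4.42 CPM in Control. Its interval, -1.17 to 1.13, was the widest of these 9 genes, and a difference of 2-fold could not have been told from none. The sign of the log2 fold change of Exoc6b, Spr, Smyd5, Pradc1, Cct7, Fbxo41 and Alms1 turned when 1 library was left out, and that of Alms1 also under another scaling.

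**Figure D3:**
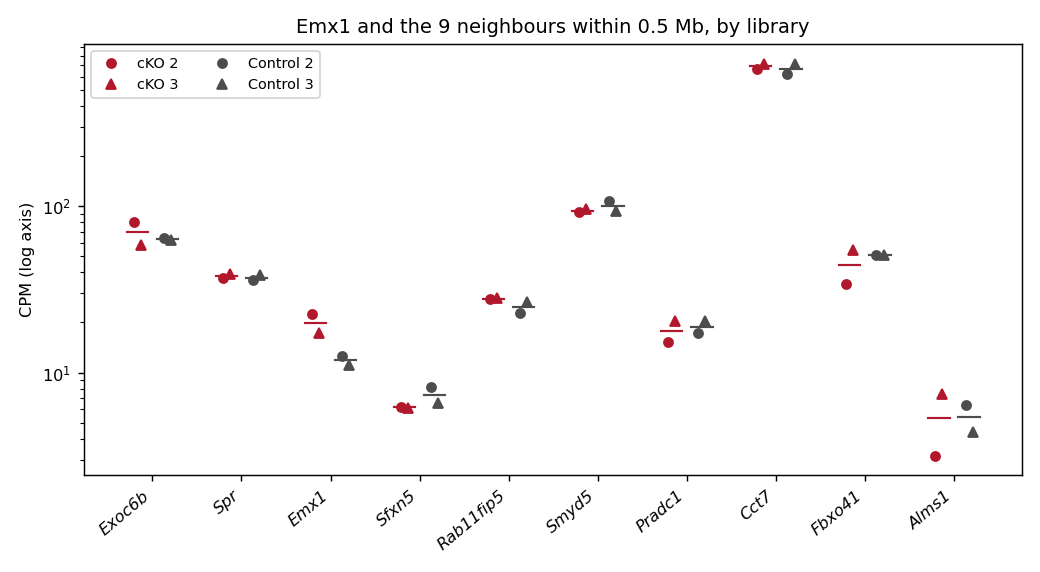
CPM on a log axis in cKO (red, left of each gene) and Control (grey, right) for Emx1 and the 9 neighbours within 0.5 Mb, in chromosomal order; circles are replicate 2, triangles replicate 3 and lines the group means. Emx1 is separated between groups (22.5 and 17.2 in cKO, 12.6 and 11.1 in Control), and most neighbours overlap. Over all tested genes 44.1% are separated, so separation alone does not set Emx1 apart.

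Genes assigned to mitochondria and metabolism, which include enzymes, carriers and mitochondrial ribosome proteins, made up the largest role group, with 21 tested genes, and had more negative than positive values. The assignment was broad and took in Gkn3, Asprv1, Nat8f1 and Nat8f4. Values of the group therefore do not describe mitochondrial genes alone. There were 14 negative and 7 positive log2 fold changes with a median of -0.25, and 0 passed the adjusted test. Unadjusted p-values below 0.05 were found for 6 genes, 1 higher in cKO (4.76% of the 21, beside 5.28% of all tested genes) and 5 lower (23.8%, beside 5.66%). Over all tested protein-coding genes the shares were 4.72% higher and 6.15% lower. The genes were grouped with earlier results known, and no test was made of these shares. The groups did not overlap for 13 of 21 genes, beside 44.1% of all tested genes in either direction. Of the 13, 12 were lower, where 22.2% of all tested genes and 3390 of 14437 protein-coding ones were apart and lower. The summed level was 758 and 778 TPM in cKO, against 911 and 866 TPM in Control.

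Mthfd2 (ENSMUSG00000005667.9; start 83282673, end 83302890, minus strand) had the smallest p of all neighbours. It encodes a mitochondrial enzyme of one-carbon folate metabolism and is known as a target of the transcription factor ATF4. Counts were 494 and 596 in cKO 2 and cKO 3, against 810 and 1030 in Control 2 and Control 3. That is 26.0 and 26.1 CPM in cKO, against 41.2 and 52.3 CPM in Control, and the groups did not overlap. The log2 fold change was -0.84 (SE 0.19; 95% interval -1.30 to -0.39), with an edgeR adjusted p of 0.282 and a DESeq2 adjusted p of 0.0277. Over the alternatives in which Mthfd2 was refitted with edgeR or limma, its adjusted p ran between 0.147 and 0.919. Of 18 ATF4 target genes, a list that includes Mthfd2, 15 had negative and 3 positive values (median -0.25), and 0 were called. Their summed level was 783 and 803 TPM in cKO, against 849 and 1009 TPM in Control, and their part in the value of Mthfd2 was not tested.

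Dguok (start 83457199, end 83483951), the mitochondrial deoxyguanosine kinase that supplies nucleotides for mitochondrial DNA, had 18.4 and 17.9 CPM in cKO, against 30.9 and 28.5 CPM in Control. Its libraries were close within each group, and the log2 fold change was -0.71 (SE 0.20; edgeR adjusted p = 0.343). Htra2 (start 83028247, end 83032254), a serine protease of the mitochondrial intermembrane space, had 56.2 and 48.7 CPM in cKO, against 69.5 and 65.9 CPM in Control, with a log2 fold change of -0.37 (SE 0.15; edgeR adjusted p = 0.450). Htra2 overlaps Loxl3 and Aup1 on the opposite strand. The mitochondrial ribosome gene Mrpl53 had a value of -0.02 (SE 0.23), and its groups overlapped. Mrpl19, also of the mitochondrial ribosome, had one of -0.14 (SE 0.17). It stood at 35.2 and 39.1 CPM in cKO, against 40.1 and 42.0 CPM in Control, and these did not overlap. Mrpl53 was the most abundant gene of the group at 146 TPM, and its sign turned under upper-quartile scaling.

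Nat8f1 and Nat8f4 belong to the N-acetyltransferase 8 family, whose mouse members lie in a cluster between 0.5 and 1 Mb from Emx1. Nat8f1 (start 85887136, end 85892669) had 5.48 and 3.33 CPM in cKO, against 9.67 and 8.73 CPM in Control, a log2 fold change of -1.07 (SE 0.37; edgeR adjusted p = 0.405). Nat8f4 (start 85876033, end 85881866) had 6.37 and 9.33 CPM in cKO, against 18.1 and 11.0 CPM in Control, a log2 fold change of -0.89 (SE 0.35; edgeR adjusted p = 0.434). In both genes the cKO libraries lay below the Control libraries. Counts of such similar copies are uncertain, since reads can match several of them. Nat8f1 also overlaps Tprkb, a subunit of the KEOPS tRNA-modifying complex, on the opposite strand. Tprkb is more abundant, and its log2 difference was 0.02 (SE 0.19). Nat8f2 and Nat8f5 were too low to test, and Nat8f3, Nat8f6, Nat8f7 and Nat8 had 0 counts in every library. Pcyox1 (start 86362988, end 86374136), a lysosomal oxidase that breaks down prenylcysteine, was the 1 gene of this group with an unadjusted p below 0.05 and a higher level in cKO, with 176 and 209 CPM in cKO, against 127 and 167 CPM in Control (log2 fold change 0.39, SE 0.17, edgeR adjusted p = 0.455).

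RNA-processing and translation genes included the most abundant neighbour, and the median size of their change, 0.08, was the smallest of the role groups. Their 12 tested genes had 8 positive and 4 negative values and a median of 0.04. Cnbp, a nucleic acid binding protein whose expanded human repeat causes myotonic dystrophy, led all neighbours at 535 TPM on average. It had 639 and 609 CPM in cKO, against 565 and 621 CPM in Control, a log2 difference of 0.07 (SE 0.10). Pcbp1, a poly(C)-binding protein, averaged 266 TPM and differed by 0.05 (SE 0.11) on that scale. Snrpg, a core Sm protein of the spliceosome, averaged 344 TPM, with 92.0 and 51.0 CPM in cKO, against 68.4 and 71.5 CPM in Control. The cKO libraries of Snrpg lay on both sides of the Control libraries, and its sign turned in the fit with a replicate block, in limma-voom and without Control 2 or cKO 2.

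Within the same role group, Zfp638 and Paip2b had unadjusted p-values below 0.05, in opposite directions. Zfp638 (start 83844091, end 83966532), a zinc finger protein that binds RNA, had 26.9 and 40.5 CPM in cKO, against 48.3 and 71.6 CPM in Control. Both groups were spread widely and did not overlap, with a log2 fold change of -0.83 (SE 0.26; edgeR adjusted p = 0.382). As a difference of log2(TPM + 0.1) the change of Zfp638 was smaller, at -0.549. Its apparent transcript length was 2686 and 3178 bases in cKO, against 3652 and 3692 bases in Control. Paip2b (start 83782383, end 83808723), an inhibitor of translation that binds poly(A)-binding protein, had 97.1 and 76.9 CPM in cKO, against 65.7 and 64.8 CPM in Control, with a log2 fold change of 0.42 (SE 0.16; edgeR adjusted p = 0.426). Dusp11, a phosphatase of RNA 5′ ends, had 30.0 and 39.7 CPM in cKO, against 29.2 and 28.1 CPM in Control (log2 fold change 0.28, SE 0.21).

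Trafficking, cytoskeleton and protein-turnover genes had 11 positive and 8 negative values among 19 tested, with a median of 0.06. The small GTPase Rab7 of late endosomes had 364 and 391 CPM in cKO, against 333 and 349.8 CPM in Control. Add2, the beta subunit of adducin that joins spectrin to actin, had 452 and 457 CPM in cKO, against 407 and 416 CPM in Control. In CPM both genes were separated between groups by small steps, with log2 fold changes of 0.15 for Rab7 and 0.14 for Add2 (SE 0.10 for each). The edgeR adjusted p-values were 0.655 for Rab7 and 0.628 for Add2. In TPM Add2 stayed apart, but Rab7 overlapped, at 237 and 280 in cKO, against 234 and 254 in Control. Anxa4, a calcium-dependent phospholipid-binding protein, had 7.06 and 11.0 CPM in cKO, against 6.92 and 4.77 CPM in Control (log2 fold change 0.63, SE 0.37). Rab43, a GTPase of the Golgi, had 22.9 and 16.0 CPM in cKO, against 18.0 and 11.5 CPM in Control (log2 fold change 0.40, SE 0.31). Wdr54, a WD-repeat protein (start 83126342, end 83133379), was the 1 gene of this group with an unadjusted p below 0.05. It had 18.7 and 15.9 CPM in cKO, against 25.5 and 26.6 CPM in Control, a log2 fold change of -0.59 (SE 0.21; edgeR adjusted p = 0.413). Wdr54 overlaps Rtkn on the opposite strand. Rtkn had 4.69 and 6.66 CPM in cKO, against 12.5 and 7.82 CPM in Control.

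The signalling and cell-surface group had 4 positive and 6 negative values, a median of -0.35 and the widest quartiles of the role groups. Dok1 (ENSMUSG00000068335.7; start 83007915, end 83010452), an adaptor that docks to receptor tyrosine kinases and is abundant in blood cells, had the largest log2 fold change of all neighbours. It rested on few counts, 1 and 9 in cKO 2 and cKO 3, against 21 and 44 in Control 2 and Control 3. The log2 fold change was -2.82 (SE 1.06; 95% interval -5.30 to -0.34), with an edgeR adjusted p of 0.425. It was -4.81 without cKO 3, -2.05 without cKO 2 and -0.95 as a difference of log2(TPM + 1), which understates changes of low genes. Among 8 microglia markers, 7 had negative and 1 a positive value (median -0.19). Their summed levels were 242 and 218 TPM in cKO, against 255 and 265 TPM in Control, and their part in the value of Dok1 was not tested. Tacr1, the substance P receptor, had 2.84 and 2.85 CPM in cKO, against 5.19 and 5.38 CPM in Control (log2 fold change -0.89, SE 0.40, edgeR adjusted p = 0.474). Sema4f, a transmembrane semaphorin and the most abundant of the group at 18.6 TPM, differed by 0.09 (SE 0.17) on the log2 scale, with its sign turned without cKO 3.

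Mob1a (ENSMUSG00000043131.15; start 83302998, end 83320758, plus strand), a co-activator of the LATS kinases in the Hippo pathway, had the smallest p of the neighbours with higher values in cKO. It had 449 and 739 counts in cKO 2 and cKO 3, against 367 and 321 in Control 2 and Control 3. That is 23.6 and 32.4 CPM in cKO, against 18.7 and 16.3 CPM in Control. The groups did not overlap, and the log2 fold change was 0.68 (SE 0.24; 95% interval 0.12 to 1.24), with an edgeR adjusted p of 0.406.

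**Figure D4:**
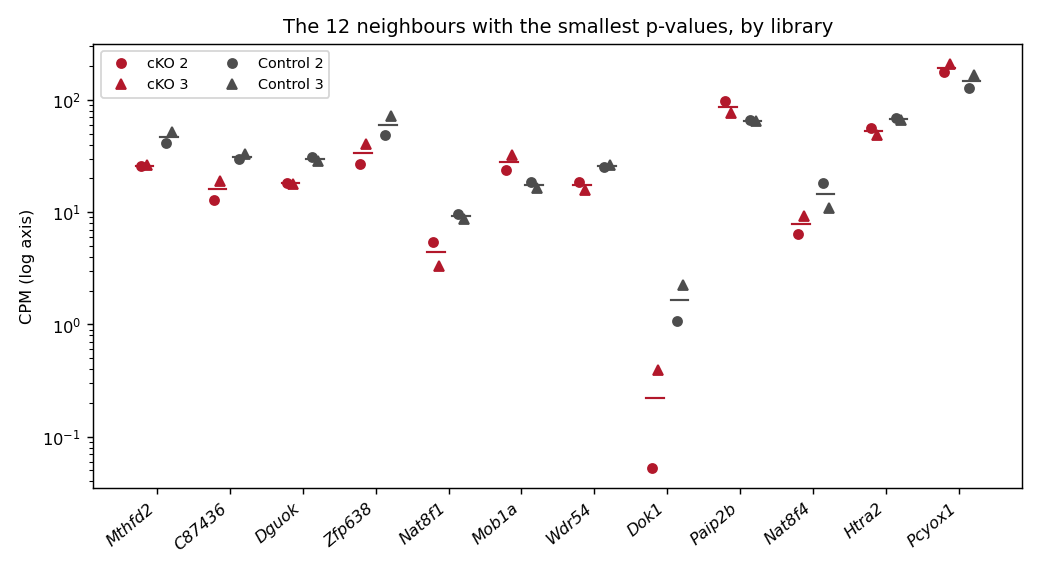
CPM on a log axis in cKO (red, left of each gene) and Control (grey, right) for the 12 neighbours with an unadjusted p below 0.05, ordered by p; circles are replicate 2, triangles replicate 3 and lines the group means. Of the genes shown, 9 are lower in cKO and 3 higher (Mob1a, Paip2b and Pcyox1). The groups are apart in each, but choosing genes by p in these same libraries favours that, and 44.1% of all tested genes are apart. Dok1 stands lowest, at 0.0527 and 0.394 in cKO and 1.07 and 2.23 in Control.

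Neighbouring genes whose outer ends adjoin had values of the same sign in 2 of 5 pairs. Within the neighbours, 5 pairs lie head to head, with their outer ends within 1000 bases in the deposited annotation, and all were tested. Mthfd2 and Mob1a face away from each other across 108 bases, with log2 fold changes of -0.84 and 0.68, the smallest p in each direction. The RefSeq starts behind the printed sequences lie 8435 bases apart, so the outer ends and the main starts differ between annotations. Dok1 and Loxl3, a lysyl oxidase, had values of -2.82 and 0.20, and Pradc1 and Cct7 values of -0.07 and 0.06. The 2 pairs with the same sign were Htra2 with Aup1, at -0.37 and -0.02, and Wdr54 with 1700003E16Rik, at -0.59 and -0.08. The values of Loxl3, Pradc1, Cct7, Aup1 and 1700003E16Rik were smaller than their SE, so the signs of these genes are uncertain. The difference within a pair was not tested.

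Chromatin, transcription and DNA-repair genes had 3 positive and 6 negative values among 9 tested, a median of -0.06 and 0 unadjusted p-values below 0.05. Pole4, a histone-fold subunit of DNA polymerase epsilon, was the most abundant at 136 TPM, with 113 and 99.6 CPM in cKO, against 93.3 and 96.8 CPM in Control (log2 fold change 0.16, SE 0.13). Tet3, which oxidises 5-methylcytosine, had a log2 fold change of -0.03 (SE 0.16). Of the 7 tested genes with no role assigned, 5 had negative and 2 positive values, with a median of -0.48. C87436 (start 86415356, end 86450482) among them had the second smallest p of all neighbours, with 12.8 and 19.1 CPM in cKO, against 29.6 and 33.0 CPM in Control. Its log2 fold change was -0.97 (SE 0.25; edgeR adjusted p = 0.317), and as a difference of log2(TPM + 0.1) it was smaller, at -0.649. C87436 overlaps the non-coding gene A430078I02Rik on the opposite strand and the low gene Gm44790 on the same strand. Its apparent transcript length was 1666 and 2380 bases in cKO, against 2405 and 2825 bases in Control.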

How the data were processed

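RNA from newborn cortex was sequenced in 4 libraries, 2 per group. The low-input kit SMART-Seq v4, which does not mark strand, was used per the labels' protocols. The deposited table gives estimated counts and TPM for each gene. The authors used DRAGEN and GRCm39, per the submitters' processing notes; versions, annotation and filters are not stated there. Of the 92 neighbours, 37 had a fractional estimated count in at least 1 library, so reads may have been split between genes.

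Counts were rounded and filtered with edgeR's default filter (edgeR 4.0.16, R 4.3.3), which kept 17017 genes, scaled by TMM (factors 0.979 to 1.02), and compared with edgeR's quasi-likelihood test at an adjusted p of 0.05, with genotype as the only term. Intervals use the t distribution of that fit. Libraries of a group were not duplicates: chi-square per degree of freedom of their counts was 29.5 for cKO and 13.3 for Control. Deviations of same-numbered libraries correlated at 0.0136 over genes, so shared numbers were not used as pairs. An exact test of 2 libraries against 2 cannot go below a two-sided p of 0.333, so none was used for single genes.

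Alternatives were other scalings and filters, DESeq2 1.42.0, limma-voom (limma 3.58.1), a replicate block, protein-coding genes only, leaving out each library, genes within 1 Mb, genes without overlap, and differences of log2(TPM + 0.1) and log2(TPM + 1) from the deposited TPM. Named genes were Emx1, neighbours within 0.5 Mb, the 8 smallest p in each direction, the 6 highest in TPM and the most abundant of each role group. Htra2, Mrpl19, Tprkb, Rtkn, Tacr1, Tet3 and members of head-to-head pairs were named after their values were seen. The neighbours, role groups and marker lists were chosen with earlier results of these data known. Sequences come from RefSeq (GRCm38.p6), which differs from the build of the table, and no coordinate was moved between builds. The procedure was tested on simulated data.

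The marker lists not given in the report had these values. Of 12 meningeal and fibroblast markers, 10 had positive and 2 negative log2 fold changes (median 0.40), and of 12 interneuron markers 1 had a positive and 11 negative ones (median -0.23). Of 8 endothelial markers, 6 were positive and 2 negative (median 0.31), and of 12 projection-neuron markers 8 were positive and 4 negative (median 0.16). Among all lists, 1 gene was called, a striatal one, lower in cKO.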

Additional observations from a re-analysis of the deposited data

How the results depend on the processing

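No neighbour was called higher under any alternative, and Mthfd2 under DESeq2 was the 1 call lower (adjusted p 0.0277). The number of neighbours with an unadjusted p below 0.05 was 12 and ran between 4 and 15 when 1 library was left out, while the count over all tested genes ran between 880 of 18052 and 2335 of 17973. It was 2 within 1 Mb of Emx1 and 6 among genes that overlap no other, where fewer genes are counted. The median log2 fold change was -0.000761 with upper-quartile scaling and -0.0766 with no filter, and lay between -0.148 and -0.0493 with 1 library left out; the cause was not tested. With a replicate block, 0 neighbours were called, 11 had an unadjusted p below 0.05 and the median was -0.0591. The libraries share only a number.

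Of 31 named neighbours, 21 kept their sign in every setting. Signs turned for Mrpl53 and Alms1 with upper-quartile scaling (0.0187 and 0.0165) and with protein-coding genes only (0.0011 and 0.00208), and for Snrpg with limma-voom (-0.0516) and the replicate block (-0.0273). From differences of log2(TPM + 0.1) and log2(TPM + 1), signs turned for Pradc1 (0.0129 and 0.0131) and Snrpg (-0.0884 and -0.0881), and from the second also for Alms1 (0.0037). With 1 library left out, log2 fold changes ran between -0.770 and 0.467 for Alms1, -0.0493 and 0.162 for Cct7, -0.123 and 0.340 for Exoc6b, -0.588 and 0.111 for Fbxo41, -0.369 and 0.258 for Mrpl53, -0.295 and 0.118 for Pradc1, -0.107 and 0.265 for Sema4f, -0.185 and 0.00847 for Smyd5, -0.453 and 0.395 for Snrpg, and -0.0100 and 0.0775 for Spr. With 1 library left out, the lone library of its group is assumed to vary like the other group. The 14 neighbours with at most 34 counts in any library were too low to test, and Dok1 rested on 1 to 44 counts per library.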

Other observations

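The same stretch of chromosome 6 holds 62 non-coding genes and pseudogenes with a count, of which 19 were tested. There were 12 positive and 7 negative log2 fold changes, 0 passed the adjusted edgeR test and 2 had an unadjusted p below 0.05. The non-coding RNA 1600020E01Rik, which overlaps Pcbp1 on the opposite strand, had 21.3 and 19.6 CPM in cKO, against 28.4 and 33.5 CPM in Control (edgeR log2 difference -0.60, SE 0.20, adjusted p = 0.399). The processed pseudogene Gm5879 had 6.27 and 4.60 CPM in cKO, against 2.90 and 2.23 CPM in Control (edgeR log2 difference 1.08, SE 0.44, adjusted p = 0.439). Spr-ps1, a pseudogene of Spr 31.2 kb from Emx1, had 27 and 12 counts in cKO, against 4 and 15 in Control, and these overlapped.

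Apparent transcript length was computed in 72 neighbours with at least 20 counts in every library. The ratio of the longest to the shortest of the 4 libraries had a median of 1.08, the same as over 13963 genes. It passed 1.5 in 8 neighbours, 11.1%, where 8.19% of all genes did. The ratio was highest for Hk2, which encodes hexokinase 2, at 2623 and 6623 bases in cKO, against 2024 and 6920 bases in Control. The spread of Hk2 lay within both groups, between libraries 2 and 3. Tex261 had 1881 and 2203 bases in cKO, against 2376 and 3533 bases in Control, so its libraries did not overlap. That does not set Tex261 apart, since other neighbours did not overlap either, with shorter lengths in cKO for Cct7 and Add2 and longer ones for Snrpg. The share of all genes that did not overlap in length was not computed. The median log2 difference in length was -0.03 in neighbours and -0.04 over all genes. Hk2 and Tex261 were chosen after their values were seen, and no test was made.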
